A study of Mus musculus with 46 samples.

Results

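The 8 genes described here, Glb1l, Galk2, Card6, Cd59a, Cd59b, Ric3, Kctd12b and Rbms3, were chosen by their levels in mouse synovial sarcomas with disrupted Pbrm1, out of 56980 genes counted in hSS2 tumors and 56941 in hSS1 tumors. Of these, 7 were selected on a consistent fall after Pbrm1 disruption in hSS2 tumors, and Cd59a was added as the paralog of Cd59b. The difference between hSS2 Pbrm1-fl and hSS2 control tumors is therefore given as a description, with no test. All 8 genes passed the filter on low counts in both count tables.

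RNA was sequenced from 46 tumors of mixed-strain CB57Bl/6-svJ mice, with 1 library for each tumor. Tumors of the hSS2 background express the human fusion SS18::SSX2, and those of the hSS1 background SS18::SSX1, from the Rosa26 locus after injection of TATCre, a cell-permeable Cre protein, into a limb at 8 days of age. All groups, controls included, carry 1 of these fusions. Controls with the fusion alone numbered 13 in hSS2 and 5 in hSS1. Floxed Pbrm1 was present in 8 tumors of hSS2 and 4 of hSS1, while floxed Arid1a (8 tumors) and floxed Arid1b (8 tumors) were studied in hSS2. The floxed groups, written Pbrm1-fl, Arid1a-fl and Arid1b-fl, were homozygous for the conditional allele named, which the same injected Cre recombines, so a tumor can hold cells in which an allele escaped, together with host stroma that Cre did not reach. In such bulk samples, fewer cells of a type and less RNA per cell cannot be told apart.

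Synovial sarcoma is driven by the SS18::SSX fusion, which is built into BAF-family chromatin remodeling complexes. Pbrm1 encodes a bromodomain subunit found in the PBAF form of these complexes, whereas Arid1a and Arid1b encode alternative subunits of the canonical form, CBAF. The 8 genes have no single function in common. Glb1l encodes a relative of lysosomal beta-galactosidase, and Galk2 a kinase that phosphorylates N-acetylgalactosamine. Card6 encodes a caspase recruitment domain protein connected with NF-kB signaling. Cd59a and Cd59b are the duplicated mouse genes for CD59, a membrane-anchored inhibitor of the complement membrane attack complex. Ric3 encodes a chaperone for assembly of nicotinic acetylcholine receptors, Kctd12b a member of the KCTD family close to the GABA-B receptor subunit Kctd12, and Rbms3 an RNA-binding protein of the RBMS family.

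Libraries held between 10137668 and 21294657 counts assigned to genes. Levels below are in CPM (counts in a library scaled to a total of 1e+06) and were scaled within each table by TMM, a factor for library composition, and levels were tested only within a table. The synovial sarcoma marker list (Tle1, Bcl2, Epcam, Krt8, Krt18, Sox2 and Zic1) summed to between 246 and 922 CPM in every tumor, and all 7 markers were detected in every group. Its median was 323 CPM in Pbrm1-fl and 419 CPM in control tumors of hSS2, and 573 and 773 CPM in those of hSS1. The skeletal muscle list (8 genes) ran from 1.70 to 47927 CPM in hSS2 tumors, with medians of 194 CPM in Pbrm1-fl and 3438 CPM in control tumors, and from 3.62 to 627 CPM in hSS1 tumors. The part of tumor cell and muscle content in the levels below was not tested beyond a muscle covariate. In hSS2 control replicate 9, Arid1a was at 238 CPM, against 422 to 587 CPM in the other 12 controls and 229 to 276 CPM in Arid1a-fl tumors, which goes against its label. Mouse numbers in the labels fell into ranges that coincide with the floxed gene. Taken in 3 ranges, the Arid1a-fl mice were all in the lowest, the Arid1b-fl and hSS1 Pbrm1-fl mice in the middle, and the hSS2 Pbrm1-fl mice in the highest, from 2000 up. The hSS2 controls fell in all 3 ranges.

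Pbrm1 itself was at 171 to 316 CPM (median 253) in the 13 hSS2 controls and at 95.03 to 139 CPM (median 97.1) in the 8 hSS2 Pbrm1-fl tumors, with no overlap. The log2 difference was -1.27 ± 0.09 (SE). Of the floxed tumors, replicate 1 had the highest Pbrm1 at 139 CPM, replicate 2 was at 110 CPM, and the other 6 lay between 95.03 and 97.7 CPM. In hSS1, the controls were at 316, 275, 338, 358 and 373 CPM and the Pbrm1-fl tumors at 209, 252, 102 and 226 CPM. These groups did not overlap either. Replicate 3 was at 0.30 of the hSS1 control median, and the median of the other 3 floxed tumors at 0.67 of it. The log2 difference between the hSS1 groups (-0.75 ± 0.24) did not pass the test (adjusted p = 0.19, edgeR quasi-likelihood test). Counts cover the whole gene, while Cre removes part of it, so these levels do not measure recombination. Gnl3 shares 15 exon bases with Pbrm1 on the opposite strand.

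In hSS2 tumors with disrupted Pbrm1, each of the 8 genes had a median level below that of the controls. The fitted log2 differences ran from -2.75 for Kctd12b to -1.09 for Ric3. Every one of the 8 floxed tumors was below the control median for every gene. All 8 tumors were below every control for Glb1l and Ric3, 7 of 8 for Galk2, Card6, Cd59b, Kctd12b and Rbms3, and 5 of 8 for Cd59a. Among the 20083 genes tested in hSS2, 0.159% had all 8 floxed tumors below every control, and 3.95% were called lower at an adjusted p under 0.05. Nothing is read from these shares, since this contrast chose the genes. With the mean level of the muscle markers as a covariate, the differences ran from -2.71 for Kctd12b to -1.09 for Ric3.

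**Figure D1:**
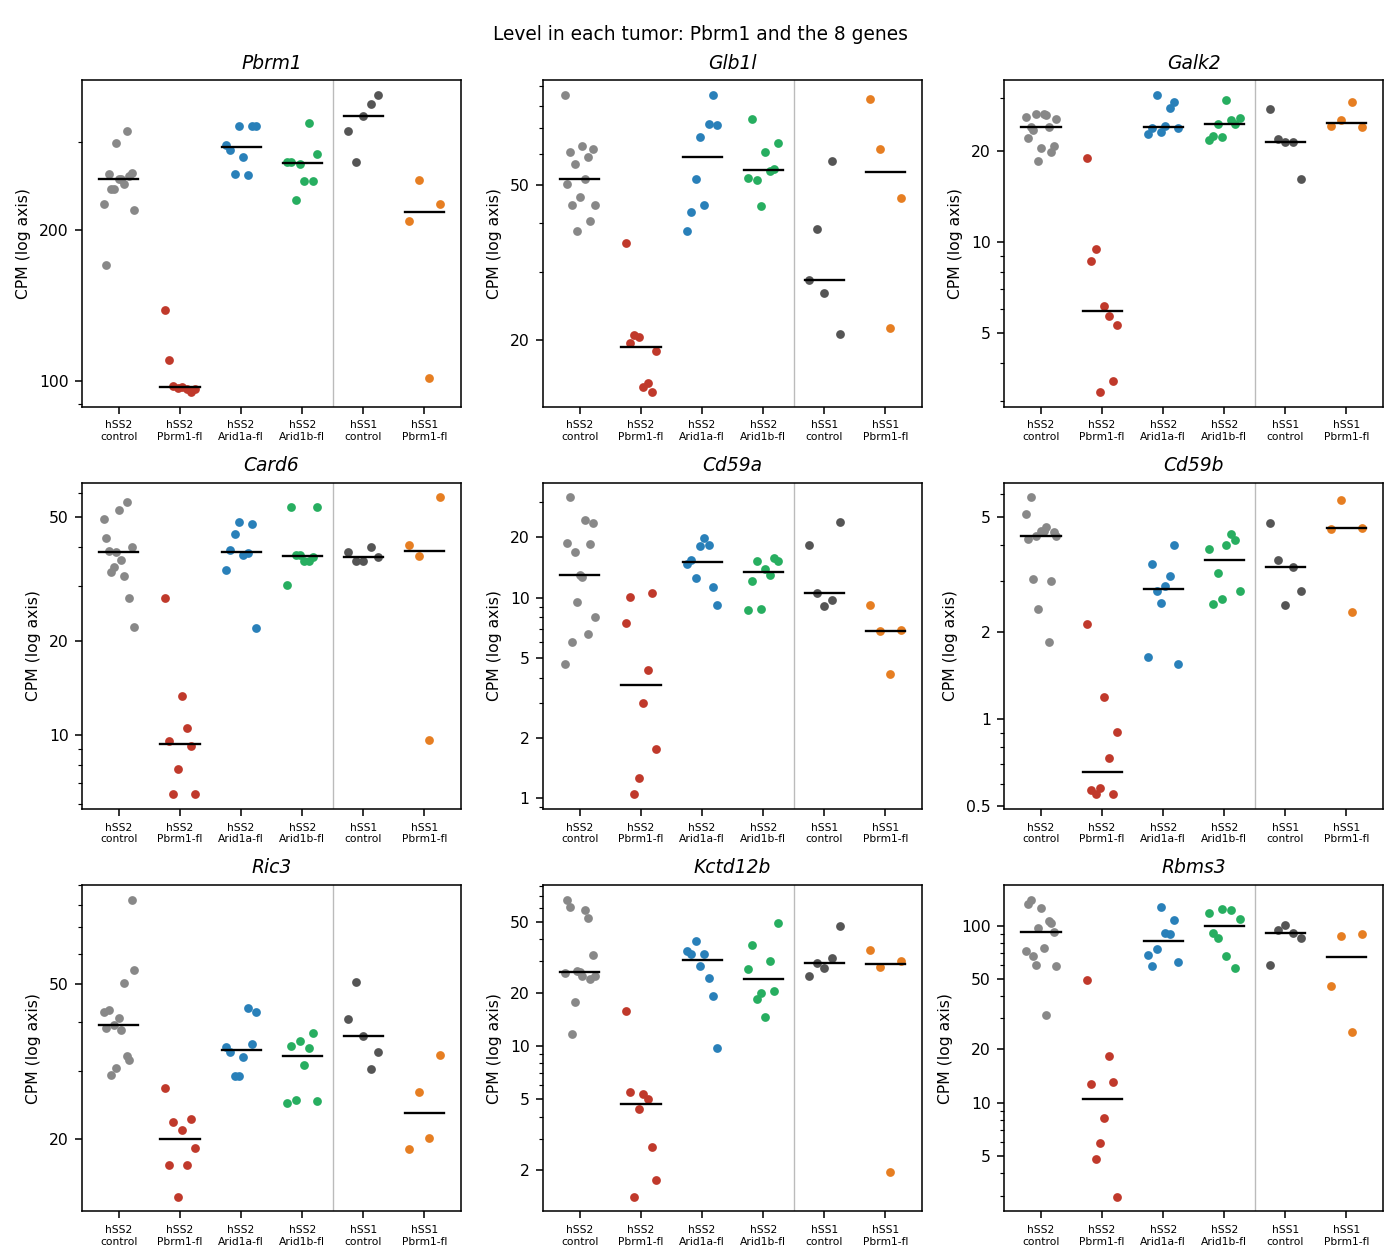
Level of Pbrm1 and of the 8 genes in each of 46 tumors, in CPM on a log axis, by group. Each point is 1 tumor, ordered by replicate within a group, the line is the group median, and the vertical gray line divides the hSS2 from the hSS1 table, which were scaled separately. The hSS2 Pbrm1-fl tumors lie low for all 8 genes, while in hSS1 Pbrm1-fl a single tumor, replicate 3, is below every control for Card6 and Kctd12b, and replicates 1 and 3 are for Rbms3.

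Rbms3 and Kctd12b had the largest log2 differences. Rbms3 (chr9:116572746-117629913, minus strand of GRCm38, as are all gene positions here) ranged from 31.1 to 140 CPM (median 91.4) in hSS2 controls. In the 8 Pbrm1-fl tumors it was at 49.3, 12.8, 4.80, 5.93, 8.25, 18.3, 13.03 and 2.96 CPM in replicates 1 to 8. Only replicate 1 entered the control range, above a single control, replicate 9, at 31.1 CPM, which is the tumor with the discordant Arid1a level. Without that control, no floxed tumor overlapped the controls for Rbms3. The log2 difference was -2.64 ± 0.36 (SE).

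Kctd12b (chrX:153685154-153696391, minus strand) ranged from 11.7 to 66.9 CPM (median 26.2) in hSS2 controls. Its levels in hSS2 Pbrm1-fl replicates 1 to 8 were 15.7, 5.47, 1.41, 4.41, 5.38, 5.02, 2.69 and 1.76 CPM. Replicate 1 again overlapped the controls and the other 7 did not. The log2 difference was -2.75 ± 0.39 (SE), and the controls themselves differed by up to 5.70-fold.

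Card6 (chr15:5095981-5108539, minus strand) was at 22.2 to 56.1 CPM (median 38.6) in controls and at 27.6, 9.51, 6.46, 7.77, 13.3, 10.5, 9.18 and 6.43 CPM in Pbrm1-fl replicates 1 to 8, a log2 difference of -1.78 ± 0.22. Galk2 (chr2:125859109-125984299, plus strand) had the narrowest control range, 18.6 to 26.6 CPM (median 24.0), and was at 18.99, 8.66, 9.53, 3.20, 6.16, 5.69, 3.49 and 5.32 CPM in the floxed tumors, a log2 difference of -1.62 ± 0.20. For both genes the lowest 7 floxed tumors lay apart from all controls. Galk2 shares 283 exon bases with Fam227b and 31 with Cops2 on the opposite strand, and the strand setting of the counting is not given in the sources used here.

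Glb1l (chr1:75198236-75210813, minus strand) ranged from 38.2 to 85.0 CPM (median 51.98) in hSS2 controls and from 14.7 to 35.5 CPM (median 19.2) in Pbrm1-fl tumors. The highest floxed tumor, replicate 1 at 35.5 CPM, was below the lowest control, and the log2 difference was -1.43 ± 0.17. Ric3 (chr7:109034312-109083331, minus strand) was at 29.2 to 82.5 CPM (median 39.2) in controls and 14.3 to 27.1 CPM (median 20.1) in floxed tumors. Its difference, -1.09 ± 0.15, was the smallest of the 8, yet its groups did not overlap. Glb1l shares 505 exon bases with Ankzf1 and Ric3 149 with Tub, both on the opposite strand, and Glb1l also holds 116 bases of the microRNA gene Gm27943 on its own strand.

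The paralogs Cd59b (chr2:104069849-104091187) and Cd59a (chr2:104095801-104115354) lie on the plus strand with 4.61 kb between them. Cd59b was the lowest of the 8 in level, at 1.86 to 5.85 CPM (median 4.31) in hSS2 controls, from 29 to 88 counts. In Pbrm1-fl replicates 1 to 8 it was at 2.14, 0.570, 0.553, 0.577, 1.196, 0.736, 0.551 and 0.904 CPM, from 9 to 22 counts, so these levels carry a large counting error. Its log2 difference was -2.16 ± 0.25. Cd59a was at 4.66 to 31.7 CPM (median 12.9) in controls and at 7.497, 10.1, 1.05, 1.26, 2.99, 4.35, 10.5 and 1.76 CPM in floxed tumors. Replicates 1, 2 and 7 lay within the control range, and the log2 difference of -1.60 ± 0.37 had the second widest error of the 8. Whether reads matching both paralogs were counted is not given in the sources used here, so their split is uncertain.

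Of the 8 genes, 5 had a start site in the RefSeq promoter table (GRCm38.p6), and 2 windows free of annotated exons are shown, each the 250 bases before the start, 5′ to 3′ on the gene's strand, with CG dinucleotides in capitals. They are shown because these 2 genes, both lower in hSS2 Pbrm1-fl tumors, begin in sequence without and with such sites.
Cd59a, chr2:104095551-104095800, plus strand: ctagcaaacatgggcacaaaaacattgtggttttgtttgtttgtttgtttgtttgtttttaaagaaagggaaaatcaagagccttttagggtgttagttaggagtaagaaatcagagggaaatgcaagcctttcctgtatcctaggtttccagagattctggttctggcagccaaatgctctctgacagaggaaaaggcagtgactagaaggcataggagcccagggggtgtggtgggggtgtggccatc
Rbms3, chr9:117629914-117630163, minus strand: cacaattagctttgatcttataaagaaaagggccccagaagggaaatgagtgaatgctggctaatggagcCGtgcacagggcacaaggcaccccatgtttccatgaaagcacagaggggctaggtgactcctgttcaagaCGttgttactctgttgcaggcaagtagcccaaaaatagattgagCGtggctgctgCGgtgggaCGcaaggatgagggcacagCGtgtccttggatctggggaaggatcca
The letters CG, which read alike on both strands, occurred 0 times before Cd59a, 1 time before Cd59b, 6 and 7 times before the starts of Rbms3, 14 and 5 times before those of Galk2 and 24 times before Glb1l. Over 32851 windows of the same length the median was 6, and 92.1% held at least 1. The genes that were low together therefore started in windows that ranged from none of these sites to more of them than 88.0% of all windows.

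Levels in the other hSS2 groups set these values beside those of tumors with CBAF subunits disrupted. Since the comparisons with controls share the control tumors that chose the genes, they too are descriptions. The largest log2 differences were -0.55 ± 0.23 for Cd59b in Arid1a-fl tumors and -0.46 ± 0.15 for Ric3 in Arid1b-fl tumors. Card6, for example, had a median of 38.8 CPM in Arid1a-fl and 37.5 CPM in Arid1b-fl tumors, against 38.6 CPM in controls. None of the 8 genes had all 8 tumors of either group below the lowest control, and Ric3 in Arid1b-fl tumors came nearest, with 3 of 8. All 8 Arid1a-fl tumors were nevertheless below the control median for Cd59b, at 1.55 to 3.996 CPM, as were all 8 Arid1b-fl tumors for Ric3, at 24.8 to 37.6 CPM. The shares of all genes with such patterns in these 2 groups were not computed, so nothing is read from these counts. Per kilobase of exon, the mean control level ran from 3.08 CPM for Cd59b to 9.17 CPM for Glb1l, with Rbms3 at 8.57 and Cd59a at 8.26.

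The direct comparison of Arid1a-fl with Arid1b-fl tumors was tested, since neither group chose the genes, although the controls were part of the fit that estimated the spread. None of the 8 genes passed, against 20 of 20083 genes called (0.0996%). At an unadjusted p under 0.05 the count over all genes was 2517, of which none were among the 8, and DESeq2 called 235 genes, again none of the 8. The log2 differences ran from -0.32 for Cd59b (95% confidence interval -0.84 to 0.19) to 0.22 for Cd59a (-0.57 to 1.00), each interval including 0. The mouse number range cannot be told apart from the floxed gene in this comparison.

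The 4 hSS2 controls numbered from 2000 up, the range of the hSS2 Pbrm1-fl mice, were also set against the other 9 controls. The levels of these controls helped to choose the genes, so nothing about the part of mouse number is read from the absence of a call. None of the 8 genes passed the test, while 28 of 20083 genes were called (0.139%), and DESeq2, which called 248 genes, called none of the 8. The differences ran from -0.22 ± 0.20 for Ric3 to 0.37 ± 0.45 for Kctd12b. At an unadjusted p under 0.05 there were 2987 genes and none of the 8. Against these 4 controls alone, the log2 difference of the floxed tumors was -2.84 for Rbms3, -2.99 for Kctd12b, -1.87 for Card6, -1.65 for Galk2, -2.35 for Cd59b, -1.63 for Cd59a, -1.59 for Glb1l and -0.93 for Ric3.

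The hSS1 tumors gave a comparison in animals that took no part in choosing the genes. None of the 8 genes passed the test between 4 Pbrm1-fl and 5 control tumors, where 1 of 17786 genes was called lower (0.00562%). DESeq2 called 1229 genes and none of the 8. At an unadjusted p under 0.05 there were 3059 genes, among them Cd59a and Ric3. Over all genes, 3.54% had all 4 floxed tumors below every control, and none of the 8 did. Against only the 3 controls in the mouse number range of the floxed tumors, no gene at all was called by edgeR, and the log2 differences were -1.07 for Cd59a and -0.45 for Ric3. The difference between the hSS1 and hSS2 effects was not tested, because the hSS2 effect chose the genes, so the values stand side by side.

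Ric3 was at 18.9, 26.5, 20.2 and 32.9 CPM in hSS1 Pbrm1-fl replicates 1 to 4 and at 40.8, 50.9, 36.96, 30.3 and 33.5 CPM in the controls. Of the floxed tumors, 3 were below every control. The log2 difference was -0.64 ± 0.22 (SE), with adjusted p = 0.20 by edgeR and 0.092 by DESeq2. Cd59a was at 9.21, 6.79, 4.18 and 6.92 CPM against 18.4, 10.5, 9.09, 9.72 and 24.0 CPM, and again 3 floxed tumors were below every control. Its difference was -1.08 ± 0.37, with adjusted p = 0.21 by edgeR and 0.071 by DESeq2.

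Rbms3 was at 45.4, 87.5, 25.2 and 89.8 CPM in hSS1 Pbrm1-fl tumors and 59.8, 94.9, 100.7, 91.0 and 84.5 CPM in controls. Replicates 1 and 3 lay below all controls, and the other two within their range. The difference of -0.48 had a 95% confidence interval from -1.28 to 0.33. Kctd12b was at 34.8, 27.98, 1.94 and 30.3 CPM against 24.7, 29.3, 27.7, 31.2 and 47.7 CPM. A single floxed tumor, replicate 3, separated from an otherwise shared range, and the interval of the difference ran from -1.83 to 0.96.

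Card6 had the tightest hSS1 controls, at 38.6, 36.1, 36.2, 40.02 and 37.2 CPM, and Pbrm1-fl tumors at 40.6, 37.6, 9.59 and 57.97 CPM. Replicate 3 was the only one below the controls, and without it the log2 difference changed from -0.05 to 0.28. Galk2 was at 24.3, 25.4, 29.2 and 24.1 CPM against 27.6, 21.9, 21.4, 21.4 and 16.2 CPM, so that no floxed tumor was below the control median. The log2 difference was 0.24, with an interval from -0.14 to 0.63. Glb1l was at 83.3, 61.9, 21.5 and 46.5 CPM against 28.5, 38.5, 26.5, 57.8 and 20.7 CPM, a difference of 0.63 with an interval of -0.29 to 1.55.

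**Figure D2:**
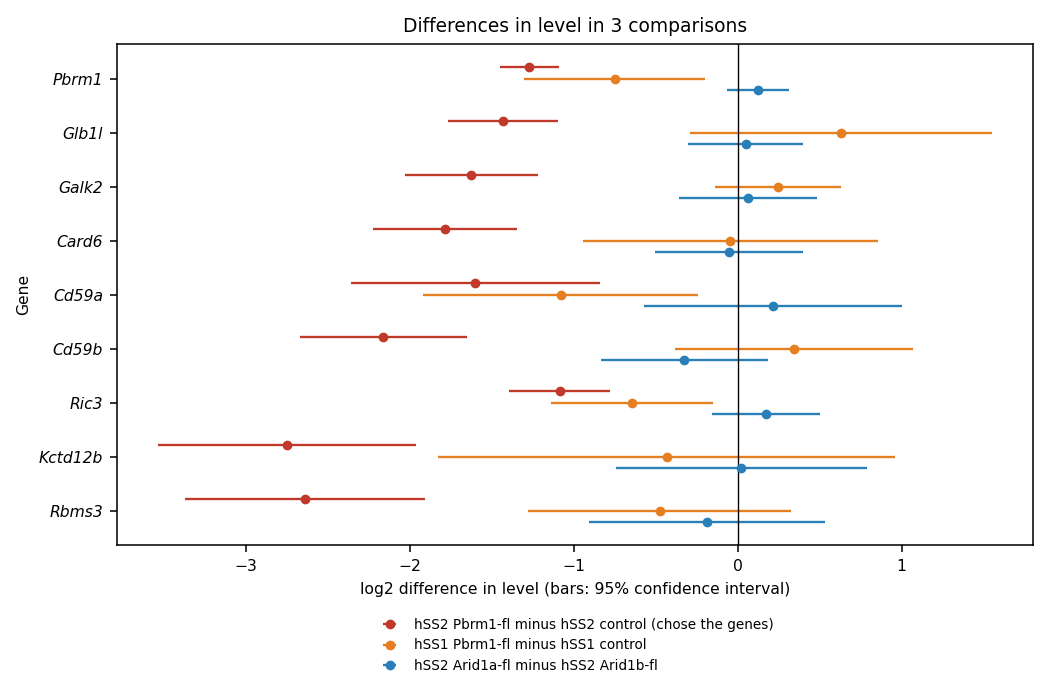
Log2 difference in level of each gene (horizontal axis, with 95% confidence intervals from the edgeR fits) in 3 comparisons. The hSS2 Pbrm1-fl values chose the genes and lie between -2.75 and -1.09, while the intervals of the Arid1a-fl against Arid1b-fl comparison all include 0 and, in hSS1, only those of Pbrm1, Cd59a and Ric3 lie wholly below 0.

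Cd59b differed from Cd59a in hSS1. It was at 4.56, 5.70, 2.35 and 4.58 CPM in Pbrm1-fl tumors and 4.79, 3.54, 2.49, 3.36 and 2.78 CPM in controls, a log2 difference of 0.34 ± 0.32. The share of Cd59b in the counts of the pair was 33.1%, 45.7%, 35.9% and 39.8% in the floxed tumors and 20.7%, 25.1%, 21.5%, 25.7% and 10.4% in the controls. All 4 floxed tumors were above all 5 controls, with means of 38.6% ± 5.43 (SD, n = 4) and 20.7% ± 6.15 (SD, n = 5). The difference of 18.0 percentage points had p = 0.0079 in a two-sided exact permutation test, the smallest that 126 splits allow, and 0.016 after Benjamini-Hochberg adjustment over the 2 share tests made. The 95% Wilson interval of 1 tumor spanned, for instance, 25.3% to 48.2% in replicate 3, from 64 counts. These intervals cover counting error only.

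In the other share test, Cd59b made up 15.8% ± 5.06 (SD, n = 8) of the pair in hSS2 Arid1a-fl and 21.5% ± 5.01 (SD, n = 8) in Arid1b-fl tumors, with exact permutation p = 0.042 and adjusted p = 0.042. This difference of -5.67 percentage points no longer passed without any 1 of 10 of the 16 tumors, with p as high as 0.084 without Arid1b-fl replicate 1. In hSS2 controls the share ranged from 13.99% to 52.4% (median 20.3%). The hSS2 Pbrm1-fl tumors ranged from 4.97% to 34.6% (median 25.4%), with replicates 2 and 7 at 5.35% and 4.97%.

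**Figure D3:**
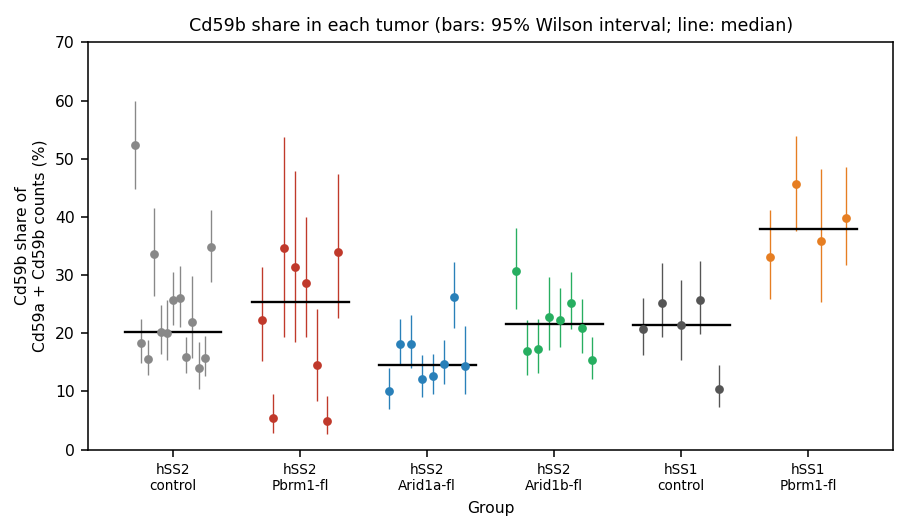
Share of Cd59b in the sum of Cd59a and Cd59b counts in each tumor, in percent, by group. Points are tumors with 95% Wilson intervals and lines are group medians. The 4 hSS1 Pbrm1-fl tumors, at 33.1% to 45.7%, all lie above the 5 hSS1 controls, whose highest is 25.7%.

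The tumors did not contribute alike. In the hSS2 Pbrm1-fl group, replicate 1, which had the highest Pbrm1 level, also had the highest level of 7 of the 8 genes, Cd59a being the exception. It was the highest of the 8 tumors in 18.9% of all genes tested, and in 44.6% of the 793 genes called lower in the group. Its level was 5.97 times the median of the other 7 for Rbms3, 3.71 times for Cd59b, 3.56 times for Kctd12b, 3.34 times for Galk2 and 3.002 times for Card6, but 1.89 times for Glb1l and 1.42 times for Ric3. Only Glb1l and Ric3 were below every control in this tumor, against 7 or all 8 genes in each of the other 7 tumors. It also had the fewest counts of its group (10613976), and the highest summed markers of 6 cell types, skeletal muscle (15501 CPM), macrophage (605 CPM), erythroid (538 CPM), adipocyte (79.3 CPM), Schwann cell (68.1 CPM) and T cell (16.1 CPM). Their part in the levels of this tumor was not tested. Without replicate 1, 7 of the 8 genes were without overlap, and 0.508% of all genes were. Nothing is read from that count, since the contrast chose the genes and the tumor was left out with its values seen. The log2 difference without it was -3.25 for Rbms3, -3.23 for Kctd12b and -1.97 for Galk2.

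**Figure D4:**
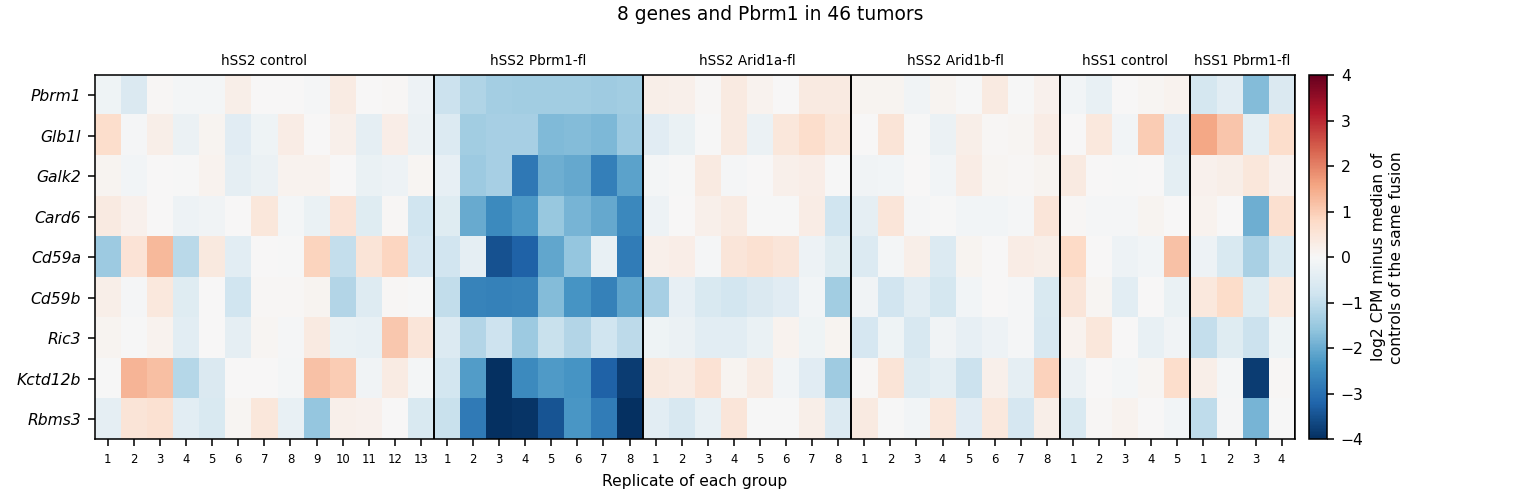
Log2 CPM of Pbrm1 and the 8 genes in 46 tumors (columns, numbered by replicate within each group), minus the median of the controls with the same fusion. Blue is lower and red higher than that median, with the scale limited at 4 in either direction. Replicate 1 is the palest column of the hSS2 Pbrm1-fl group for Galk2, Card6, Cd59b, Kctd12b and Rbms3, and replicate 3 is the darkest of hSS1 Pbrm1-fl for Card6, Kctd12b and Rbms3.

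In hSS1 the tumor that stood apart was Pbrm1-fl replicate 3, at 102 CPM of Pbrm1. It was the lowest of the 9 hSS1 tumors for 5 of the 8 genes, Card6, Cd59a, Cd59b, Kctd12b and Rbms3, as it was for 17.8% of all genes and for 46.4% of the 698 hSS1-tested genes that were called lower in hSS2. Relative to the control median, Kctd12b was at 0.066, Card6 at 0.26, Rbms3 at 0.28, Cd59a at 0.40, Ric3 at 0.55, Cd59b at 0.70 and Glb1l at 0.75, whereas Galk2 was at 1.36 and the highest of all 9. It was below every control for 6 genes, against 1 or 2 in the other 3 floxed tumors. Its summed macrophage markers (176 CPM) were above those of the controls (57.9 to 166 CPM), its synovial sarcoma markers (305 CPM) below theirs (420 to 922 CPM), and its muscle markers were at 5.81 CPM. The part of these in its levels was not tested. This tumor was singled out after its values were seen.

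Within groups, the level of each gene was then set against that of Pbrm1, which asks whether tumors retaining more Pbrm1 RNA also kept more of the 8. No correlation was pooled across groups, since disruption of Pbrm1 splits the tumors into clusters. In all, 40 relations were computed, each gene in 4 hSS2 groups and in the 9 hSS1 tumors as residuals from their group means. By Pearson's r, 5 had a permutation p under 0.05, unadjusted, 4 of them in hSS2 Pbrm1-fl tumors. In hSS2 Pbrm1-fl tumors all 8 correlations were positive, against 49.8% of all genes, with a median Pearson r of 0.76. These tumors also chose the genes, and replicate 1, with the most Pbrm1, was often the highest among the genes called lower. The values of this group are therefore a description, and nothing is read from their p values. Galk2 had r = 0.84 and rho = 0.81, and Glb1l had r = 0.88 and rho = 0.76 (n = 8). Without replicates 1 and 2, the farthest from the median Pbrm1 level, r was 0.73 for Galk2, 0.50 for Glb1l and 0.34 for Cd59b, but -0.03 for Ric3, -0.05 for Card6, -0.06 for Kctd12b, -0.43 for Rbms3 and -0.79 for Cd59a. Over all 8 tumors these last 5 had r of 0.53, 0.82, 0.78, 0.75 and 0.45, and thus rested on those 2 tumors. Without replicate 1 alone, r was between -0.25 (Ric3) and 0.58 (Galk2), with Glb1l at 0.39 and Cd59b at -0.23.

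In the hSS2 groups with intact Pbrm1 the correlations took both signs. In the 13 hSS2 controls, 2 of 8 correlations were positive, against 49.5% of all genes, with a median r of -0.10 and permutation p values of 0.061 or more. The median was -0.21 in Arid1a-fl tumors and 0.11 in Arid1b-fl tumors. Kctd12b in Arid1b-fl tumors had the smallest p by rank of the 40 relations, unadjusted (rho = 0.88, exact permutation p = 0.0072, r = 0.61, exact permutation p = 0.10, n = 8). Rbms3 in the same tumors had r = 0.66 (exact permutation p = 0.075) and rho = 0.60 (exact permutation p = 0.13). Without the 2 Arid1b-fl tumors farthest from the median Pbrm1 level, r was 0.84 for Kctd12b, 0.86 for Rbms3, 0.48 for Card6 and 0.12 for Glb1l. It was -0.73 for Cd59b, -0.55 for Ric3, -0.52 for Galk2 and -0.36 for Cd59a in the same tumors. In Arid1a-fl tumors Kctd12b ran the other way, with r = -0.57 (exact permutation p = 0.13).

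In hSS1, 7 of 8 correlations were positive, against 50.5% of all genes, with a median r of 0.63 over the residuals of 9 tumors (0.0083 for all genes). Kctd12b had r = 0.94 (exact permutation p = 0.061 within groups) and rho = 0.83 (p = 0.057), and Rbms3 had r = 0.81 (exact permutation p = 0.051) and rho = 0.62 (p = 0.13). Galk2 ran the other way, with r = -0.48 (exact permutation p = 0.048) and rho = -0.82 (p = 0.017). Without Pbrm1-fl replicate 3 and control replicate 2, r was 0.78 for Rbms3, 0.77 for Kctd12b, 0.55 for Card6, 0.30 for Ric3, 0.24 for Glb1l, 0.23 for Cd59b, 0.04 for Cd59a and -0.47 for Galk2.

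**Figure D5:**
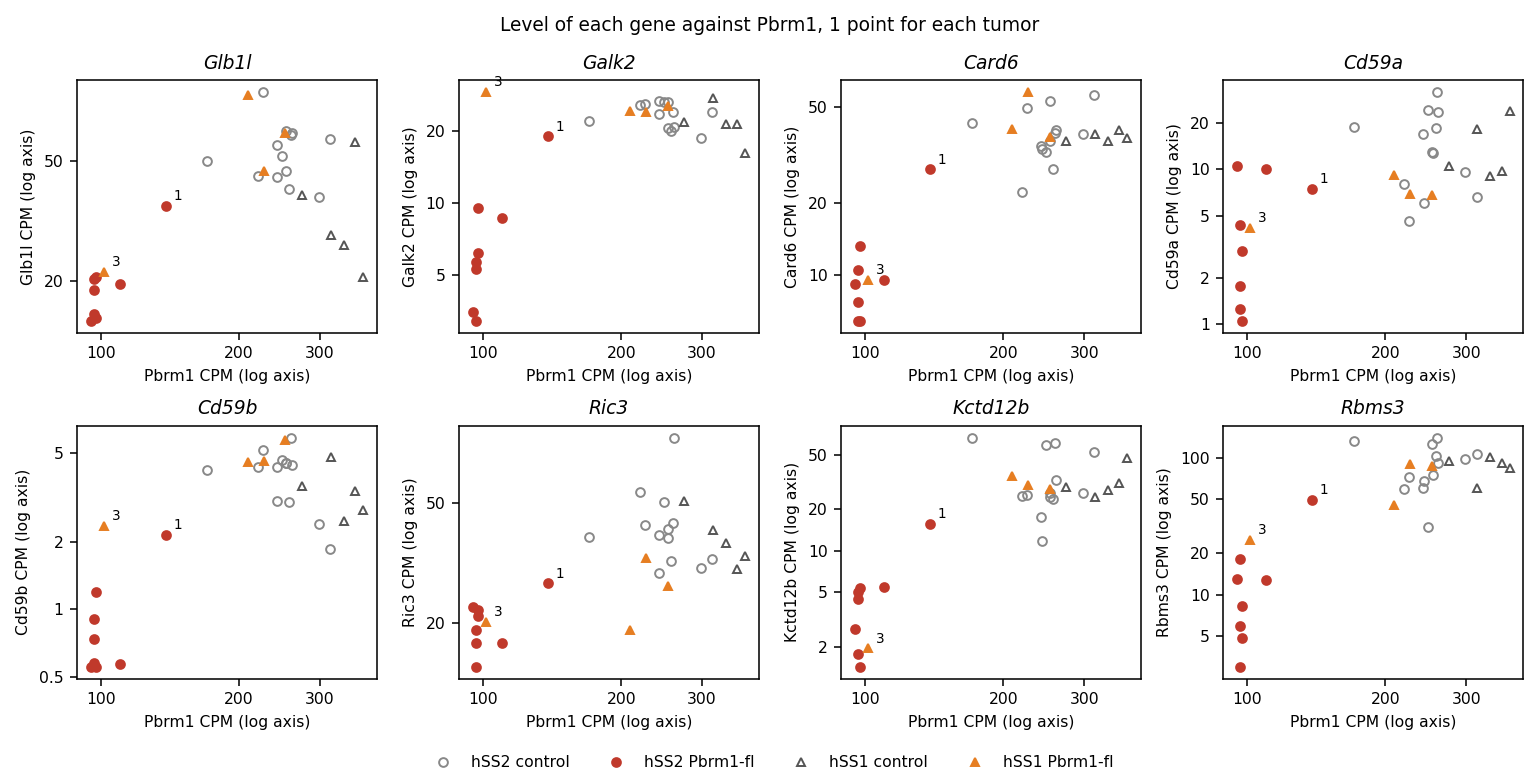
Level of each gene against the level of Pbrm1, both in CPM on log axes, with 1 point for each tumor of the control and Pbrm1-fl groups. The labels 1 and 3 mark hSS2 Pbrm1-fl replicate 1 and hSS1 Pbrm1-fl replicate 3, and the 2 tables were scaled separately. Replicate 1 (139 CPM of Pbrm1) lies above the other hSS2 floxed tumors and near the lowest controls for Galk2, Card6, Kctd12b and Rbms3. Replicate 3 (102 CPM) lies below every hSS1 control for Card6, Cd59a, Cd59b, Ric3, Kctd12b and Rbms3, but not for Glb1l or Galk2.

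The same question was put to all genes by fitting a slope, the change in log2 level for a change of 1 in log2 Pbrm1, within groups. Over the 37 hSS2 tumors the slope was 1.36 ± 0.53 (SE) for Rbms3, 0.91 ± 0.36 for Card6, 0.77 ± 0.35 for Galk2 and 0.58 ± 0.31 for Glb1l, and all 8 were positive. No gene was called (0.0% of 20082), with 1083 genes at an unadjusted p under 0.05. The control and Pbrm1-fl tumors of hSS2 chose the 8 genes, so the slopes of these genes within hSS2 are a description. With muscle marker level as a covariate, the slopes of Rbms3, Card6, Galk2 and Glb1l were 1.38, 0.90, 0.76 and 0.57. Without hSS2 Pbrm1-fl replicate 1 they were 0.38, 0.23, -0.04 and 0.19, so they rested on that tumor. In the 13 controls alone, 0.0% of 15263 genes were called, with 290 at an unadjusted p under 0.05 and none of the 8 among them. There 7 of the 8 slopes were negative, and the median slope over all genes was -0.019. The shares of positive and negative slopes over all genes were not computed, so nothing is read from these counts of signs. In hSS1, 24 of 17785 genes were called (0.135%) and none of the 8. Kctd12b had a slope of 2.96 ± 0.58 (adjusted p = 0.11), Card6 of 1.65 ± 0.37 (adjusted p = 0.14) and Rbms3 of 1.22 ± 0.35 (adjusted p = 0.23). Leaving out replicate 3 of the hSS1 floxed tumors gave 0.77, 0.02 and 0.70.

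The genes varied together only in part. Over the residuals of the 37 hSS2 tumors from their group means, 27 of the 28 pairs had a positive correlation, with a median r of 0.31. Tumors that chose the genes are among them, and the share over all gene pairs was not computed, so nothing is read from this count. The 3 pairs of Card6, Kctd12b and Rbms3 had the highest values, 0.67 for Card6 with Rbms3, 0.66 for Card6 with Kctd12b and 0.54 for Kctd12b with Rbms3. The 37 tumors include hSS2 Pbrm1-fl replicate 1, the highest of its group for all 3 genes, and the pairs were not computed without it. In the 13 controls alone the 3 pairs were at 0.47, 0.31 and 0.22. The highest pair there was Glb1l with Galk2 (0.58) and the lowest Galk2 with Rbms3 (-0.60). Of the 28 pairs 18 were positive in controls, with a median of 0.18. In the 8 hSS2 Pbrm1-fl tumors all 28 pairs were positive, with a median of 0.56. In hSS1 residuals (n = 9) the 3 pairs of Card6, Kctd12b and Rbms3 were at 0.80, 0.94 and 0.77. All 3 genes had their lowest hSS1 level in 1 tumor, Pbrm1-fl replicate 3, and the pairs were not computed without it. Libraries and their scaling are shared by both members of a pair.

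Among genes with a mean of at least 1 CPM, those most like each member over the 37 residuals were Plekhh3 for Glb1l (r = 0.76), Hvcn1 for Galk2 (0.65), Rbms3 for Card6 (0.67), Ctps2 for Cd59a (0.60), 4930523C07Rik for Cd59b (0.67), Gm30238 for Ric3 (0.70), Drp2 for Kctd12b (0.83) and Ephx2 for Rbms3 (0.71). Drp2, of chromosome X like Kctd12b, was also second for Card6 (0.67). In the contrast that chose the 8 genes, Drp2 differed by -2.67 and Ephx2 by -1.63 on the log2 scale, but Plekhh3 by -0.06 and Ctps2 by -0.31. The next most alike were Osbpl7 and Ephb4 for Glb1l, Hacd4 and Synj2 for Galk2, Chrdl1 and Fez1 for Cd59a, Gm17276 and Capn5 for Cd59b, Ndor1 and Foxo1 for Ric3, C130074G19Rik and Il17rd for Kctd12b, and Sema5a and Card6 for Rbms3.

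Within 500 kb of the 8 genes, 91 neighbors were tested in hSS2, counted once for each member, of which 5 were called lower and 5 higher in Pbrm1-fl tumors. Over all 20083 genes 793 were lower and 683 higher, and nothing is read from the count of neighbors, which includes members. Cd59a and Cd59b account for 2 of the 5 lower, being neighbors of each other. The gene D430041D05Rik, 27.7 kb from Cd59a and 51.9 kb from Cd59b, accounts for another 2, with a log2 difference of -2.12 ± 0.54, and -0.64 in hSS1. The fifth was Gm17396, a transcript that lies within Rbms3 on the opposite strand (-2.46 ± 0.48, and -0.39 in hSS1). The higher neighbors were Lmo1, 55.2 kb from Ric3 (0.84 ± 0.22), and Cryba2, Cdk5r2, Wnt10a and Wnt6, all over 300 kb from Glb1l. No neighbor of Galk2, Card6 or Kctd12b was called, out of 9, 10 and 4.

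Genes of the families and pathways to which the 8 belong were listed as partners. Of 67 listed, 54 were tested in hSS2, and 3 were lower and 1 higher in Pbrm1-fl tumors, where 793 of all 20083 genes were lower and 683 higher. The median log2 difference of the partners was -0.10, against -0.0042 for all genes. Among relatives of Glb1l, Glb1, the lysosomal beta-galactosidase, was at a median of 39.8 CPM in floxed and 37.5 CPM in control tumors, whereas Glb1l2 fell (-1.26 ± 0.36, adjusted p = 0.027). In galactose metabolism, Galk1, the galactokinase, was at 0.48 ± 0.18 (adjusted p = 0.092). Among the CARD and NF-kB adaptors Ripk2, a kinase downstream of NOD receptors, fell by a small amount (-0.44 ± 0.10, adjusted p = 0.0069).

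None of the 12 tested complement regulators and terminal components passed the test, nor did any of the 10 tested nicotinic receptor subunits and chaperones, nor Rbms1 (-0.08 ± 0.12) or Rbms2 (-0.18 ± 0.10). Of the GABA-B receptor group, Kctd16 fell (-3.26 ± 0.88, adjusted p = 0.020), from a control range as wide as 0.365 to 22.9 CPM, while Kctd12, the closest relative of Kctd12b, was at 0.94 ± 0.43 (adjusted p = 0.18). In hSS1 Pbrm1-fl tumors 0 of 44 tested partners passed by edgeR, with 3 at an unadjusted p under 0.05, and Kctd12 and Kctd16 were at 1.05 ± 0.83 and 2.04 ± 0.93. Between Arid1a-fl and Arid1b-fl tumors 0 of 54 passed by edgeR, again with 3 at an unadjusted p under 0.05.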

How the data were processed

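Tumor RNA was sequenced from ribosomal RNA-depleted, stranded, paired-end libraries. Per the study's methods and the submitters' processing notes, reads were aligned with STAR 2.7.11 to mm10 and counted with featureCounts 1.6.3. The values used were the raw counts for each Ensembl gene deposited by the authors, in 1 table for hSS2 (37 libraries) and 1 for hSS1 (9 libraries). The annotation release, the strand setting and the rule for multi-mapping reads are not given in the sources used here. Symbols, positions and exon lengths came from GENCODE M21 (GRCm38), which named 91.4% and 91.2% of the identifiers, and promoter windows from RefSeq (GRCm38.p6).

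Groups followed the sample titles, and replicates were numbered in accession order within a group. Each library is a separate tumor, and no 2 libraries of a group agreed to within counting noise. Counts were filtered with filterByExpr, scaled by TMM and fitted by edgeR 4.0.16 (R 4.3.3) with robust quasi-likelihood dispersions, 1 fit for each table. Tests were two-sided, adjusted by Benjamini-Hochberg over all genes tested, at a threshold of 0.05. SE and intervals come from these fits. Log2 CPM used a prior count of 2. Correlations used Pearson's r and Spearman's rho with exact permutation over pairings, or 100000 resamples in the 13 controls. Fits were tested on simulated counts with known changes. DESeq2 1.42.0, RLE (relative log expression) factors, no filter, non-robust dispersions, covariates, control subsets and leaving out tumors were tried as alternatives.

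Named genes were the 8 members and Pbrm1, listed partners that passed a test with their nearest relatives (1 partner is not reported here), the 3 genes most correlated with each member over residuals, and called neighbors within 500 kb. The members and lists were chosen with earlier results of these data known. Marker lists not described in the text (endothelial, adipocyte, erythroid, T cell and Schwann cell) summed to 68.3 to 449, 0 to 89.2, 14.6 to 45333, 0 to 16.1 and 6.22 to 68.1 CPM over all tumors.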

Additional observations from a re-analysis of the deposited data

Results flagged for a closer look

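In groups of 4 to 8 tumors, the gap between the most extreme tumor and its nearest neighbor was set against the group's range on the log2 scale (Dixon's 95% critical values) for Pbrm1 and the 8 genes. Of 45 combinations of gene and group, 4 passed, and chance gives about 1 in 20. Kctd12b in hSS1 Pbrm1-fl replicate 3 was at 1.94 CPM, with a gap of 0.92 of the range. Pbrm1 (139 CPM) and Glb1l (35.5 CPM) in hSS2 Pbrm1-fl replicate 1 lay above the other 7 tumors, with gaps of 0.61 and 0.62 of the range. Card6 in hSS2 Arid1a-fl replicate 8 was low, at 22.1 CPM, with a gap of 0.54.

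Galk2 took opposite sides in the 2 backgrounds. All 8 hSS2 Pbrm1-fl tumors were below the median of their controls, and all 4 hSS1 Pbrm1-fl tumors were above the median of theirs (log2 difference 0.24). This difference between the backgrounds was not tested.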

How the results depend on the processing

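Of the values of the 8 genes under other settings, 785 kept their direction and their side of the threshold, or moved by less than 1 SD where no test was made. They include 168 values without 1 tumor and 56 under other settings from the contrast that chose the genes. None of the 8 passed in a tested fit, so keeping a side there meant staying uncalled, and nothing is read from the 785. Another 38 changed sign, none of them past the threshold, with sign changes in Arid1a-fl or Arid1b-fl minus control not counted. In those, Kctd12b for instance ran from -0.38 to 0.19 in Arid1b-fl tumors, moves of less than 1 SD. With DESeq2 size factors, 6 relations with Pbrm1 had a permutation p under 0.05 in place of 5, the added 1 being Card6 in hSS2 Pbrm1-fl tumors. Those tumors chose the genes, so nothing is read from it.

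Counts over all genes moved more. DESeq2 called 1229 genes in hSS1 Pbrm1-fl tumors, 235 between Arid1a-fl and Arid1b-fl, 248 between control mouse number ranges and 1359 lower in hSS2 Pbrm1-fl tumors. Controls of the same mouse number range gave 0 in hSS1, 0 between Arid1a-fl and Arid1b-fl and 373 lower in hSS2 Pbrm1-fl tumors. Leaving out 1 tumor gave 0 to 4 in hSS1, 15 to 76 between Arid1a-fl and Arid1b-fl, 5 (without control replicate 3) to 715 (without control replicate 4) between control ranges, 0 to 53 for the hSS1 slope and 556 to 1037 lower in hSS2 Pbrm1-fl tumors. The muscle covariate gave 4 genes for the hSS2 slope. The cause was not tested.

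Leaving out 1 tumor moved the Cd59b share difference from 15.4 to 19.8 percentage points in hSS1 (unadjusted p of 0.018 to 0.029, exact permutation). These p values are the smallest that the remaining splits allow, so they reflect the number of tumors left. Between Arid1a-fl and Arid1b-fl the share difference moved from -7.16 to -4.35 percentage points.

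Reversed values, apart from those of Arid1a-fl or Arid1b-fl minus control, were as follows. With controls of their own range, Arid1a-fl minus Arid1b-fl was 0.13 for Card6, -0.10 for Cd59a, -0.27 for Ric3, -0.68 for Kctd12b and 0.0077 for Rbms3. Without the Pbrm1-fl group, the hSS2 slope was -0.26 for Galk2, -0.47 for Cd59a, -0.74 for Cd59b and -0.29 for Kctd12b, and without hSS2 Pbrm1-fl replicate 1 it was -0.037, -0.20, -0.64 and -0.15. With a range term, the control slope was 0.11 for Glb1l and 0.46 for Rbms3. With DESeq2 size factors, r was 0.051 for Ric3 in Arid1a-fl, and -0.0089 for Glb1l and -0.0036 for Card6 in Arid1b-fl tumors. Over fits without 1 tumor, Card6 ran from -0.35 to 0.28 in hSS1. Arid1a-fl minus Arid1b-fl ran from -0.045 to 0.13 for Glb1l, -0.10 to 0.041 for Card6 and -0.069 to 0.22 for Kctd12b. The control range difference ran from -0.00093 to 0.051 for Galk2 and -0.62 to 0.35 for Cd59a. The hSS1 slope ran from -0.46 to 1.25 for Glb1l, -0.46 to 0.81 for Cd59b and -0.90 to 0.29 for Ric3.

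Depth limits Cd59b most, with 9 to 22 counts in hSS2 Pbrm1-fl tumors. No paired analysis was possible because the labels give the groups no shared replicate numbers and name no litter, although the study used littermates as controls.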
